A study of Mus musculus with 21 samples.

Results

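A set of 10 genes of MHC class II presentation and of dendritic cells was followed through mouse lung, chosen by symbol: H2-Aa, H2-Ab1, H2-Eb1, Cd74, H2-DMa, H2-DMb1, Ciita, Cd209a, Ccr7 and Flt3, 10 of the 23238 symbols counted. All 10 had enough counts to be tested. Lung RNA came from 21 C57BL/6 mice, 3 in each of 7 groups and 1 library each, made by QuantSeq, which reads transcripts from their 3′ ends. Every animal, controls included, received 50 µL into the trachea once a day over 14 days, and the lung was taken on day 15 after the airways had been washed out. One arm received propylene glycol (PG), which makes up much of vaping fluids, at 826 or 1100, with saline as its control. The other received vitamin E acetate (VEA), an oily diluent, at 3.12, 6.25 or 12.5, with 10% ethanol as its control. Doses stand here without a unit because the labels give mg/kg where the design text gives mg/mL for equal values, and the solvent of VEA is not given in the sources used here. The 2 PG doses share the saline animals and the 3 VEA doses share the ethanol animals. Age and sex are not given in the sources used here.

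MHC class II molecules carry peptides of ingested proteins to the cell surface, where CD4 T cells read them. H2-Aa and H2-Ab1 encode the alpha and beta chains of I-A, and H2-Eb1 the beta chain of I-E, whose alpha chain C57BL/6 mice do not make. Cd74, the invariant chain, fills the groove of new class II molecules, and H2-DMa with H2-DMb1 forms the DM exchanger that swaps its remnant for peptide. Ciita encodes the transactivator that class II promoters need. Dendritic cells, B cells and activated macrophages are the main carriers in lung, and alveolar type II cells also make class II. Cd209a is a lectin of monocyte-derived and some conventional dendritic cells, Ccr7 the chemokine receptor that guides mature dendritic cells and lymphocytes to lymph nodes, and Flt3 the receptor for the growth factor of dendritic cell development.

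The chain and DM genes lie together. On GRCm38, H2-DMa (chr17:34119541-34139101), H2-DMb1 (chr17:34153072-34160230), H2-Ab1 (chr17:34257689-34269419), H2-Aa (chr17:34282744-34287823) and H2-Eb1 (chr17:34305867-34316674) fall within 197.1 kb of chromosome 17. The other 5 genes lie on other chromosomes. Class II promoters are known for an X box, bound by RFX and CREB family proteins, that precedes a Y box, bound by NF-Y, at a fixed distance, and Ciita docks on the bound proteins. RefSeq promoter windows (GRCm38.p6, 250 bases before the start) were matched for 6 of the 10 genes, and H2-Ab1, Cd74, Ciita and Ccr7 had no entry. Both strands were searched. The letters ATTGG, the core of the Y box, were found in 4 of these genes (H2-Aa, H2-Eb1, H2-DMa and H2-DMb1) and in 33.8% of all 32851 windows. GNAAC followed after 27 or 28 bases by ATTGG was found in H2-Aa, H2-Eb1 and H2-DMb1, and in 110 windows in all (0.335%). The longer stretch CTAGNAACTGATGATGCT, the letters that H2-Eb1 and H2-DMb1 share around GNAAC, stood in 2 windows (0.00609%), those of H2-Eb1 and H2-DMb1. TGACGTCA, the CREB family's full site, stood in 1.55% of windows and, among the 6 genes with a window, in H2-Aa. The spacing and the longer stretch were chosen after these sequences were seen, and a match describes letters, not a bound site. The promoter stretches of H2-Aa and H2-Eb1 are shown because these genes code for chains whose levels are described next. Capitals mark, in order, the first and second of the spaced motifs and, in H2-Aa, also the CREB family site.
H2-Aa, chr17:34287852-34287924, minus strand: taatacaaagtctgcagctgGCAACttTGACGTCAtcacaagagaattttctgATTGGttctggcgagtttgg
H2-Eb1, chr17:34305756-34305827, plus strand: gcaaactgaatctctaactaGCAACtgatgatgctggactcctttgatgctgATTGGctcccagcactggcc

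Total counts were 8778028 to 11783151 per library, 14843 to 15992 genes were detected, and 1 count was worth 0.0771 to 0.122 CPM (counts per 1000000 of the TMM-scaled library). Ribosomal Rn45s took 14.59% to 26.07% of counts. Haemoglobin genes took 8.49% to 10.52% of counts with ethanol, 5.85% to 7.85%, 5.76% to 7.33% and 4.06% to 5.13% with rising VEA dose, 6.49% to 13.75% with saline, 5.23% to 9.06% at PG 826 and 4.54% to 5.53% at PG 1100, so the share was lower in all animals of the groups where class II genes rose than in their controls. With Rn45s and haemoglobin left out of the counts, no call of the 10 genes changed, and the part of blood in the values was not tested. Alveolar type II genes, which mark lung, summed to 24645 CPM or more in every library. The 3 chains, Cd74, H2-DMa and H2-DMb1 had 207 to 17756 counts per library, while Ciita, Cd209a, Ccr7 and Flt3 had 5 to 145, and the SEs of the latter are larger. Changes are given as log2 fold change ± SE from edgeR's quasi-likelihood test, and a gene is said to have risen or fallen when its Benjamini-Hochberg adjusted p over all 14727 genes tested was below 0.05. In whole lung, more or fewer cells of a type cannot be told apart from more or less RNA per cell.

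Of the 6 class II chain and loading genes, 4, 5 and 6 rose with VEA at 3.12, 6.25 and 12.5, and 5 rose with PG at 1100. None of them passed the test with PG at 826 or with ethanol. VEA at 12.5 raised 7 of the 10 genes (median log2 fold change 0.92), against 5.48% of all genes tested called higher and 9.71% called either way. At 6.25, 5 of 10 rose (median 0.72, background 3.51% higher and 5.76% either way), and at 3.12, 4 of 10 rose (median 0.71, background 3.42% and 5.51%). PG at 1100 raised 5 of 10 (median 0.59, background 4.09% and 7.31%), a count of 2 without saline 10 and of 1 when only the groups compared were fitted. None of the 10 fell in any of these comparisons. The treated and control animals did not overlap for 6 of the 10 genes at each VEA dose, where 24.7%, 23.5% and 30.1% of all genes were so separated in either direction. At PG 1100, 5 genes lay wholly above saline and Ccr7 wholly below, against 19.8% of all genes. Over all genes tested the median change lay between -0.01 and 0.01. PG at 826 changed none of the 10 by edgeR (median 0.11, background 0.136%), with 1 at an unadjusted p below 0.05 and 0 called by DESeq2 and by limma-voom. Ethanol against saline changed none (median 0.01, background 0%), with 0 at an unadjusted p below 0.05 and 0 by either other tool.

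**Figure D1:**
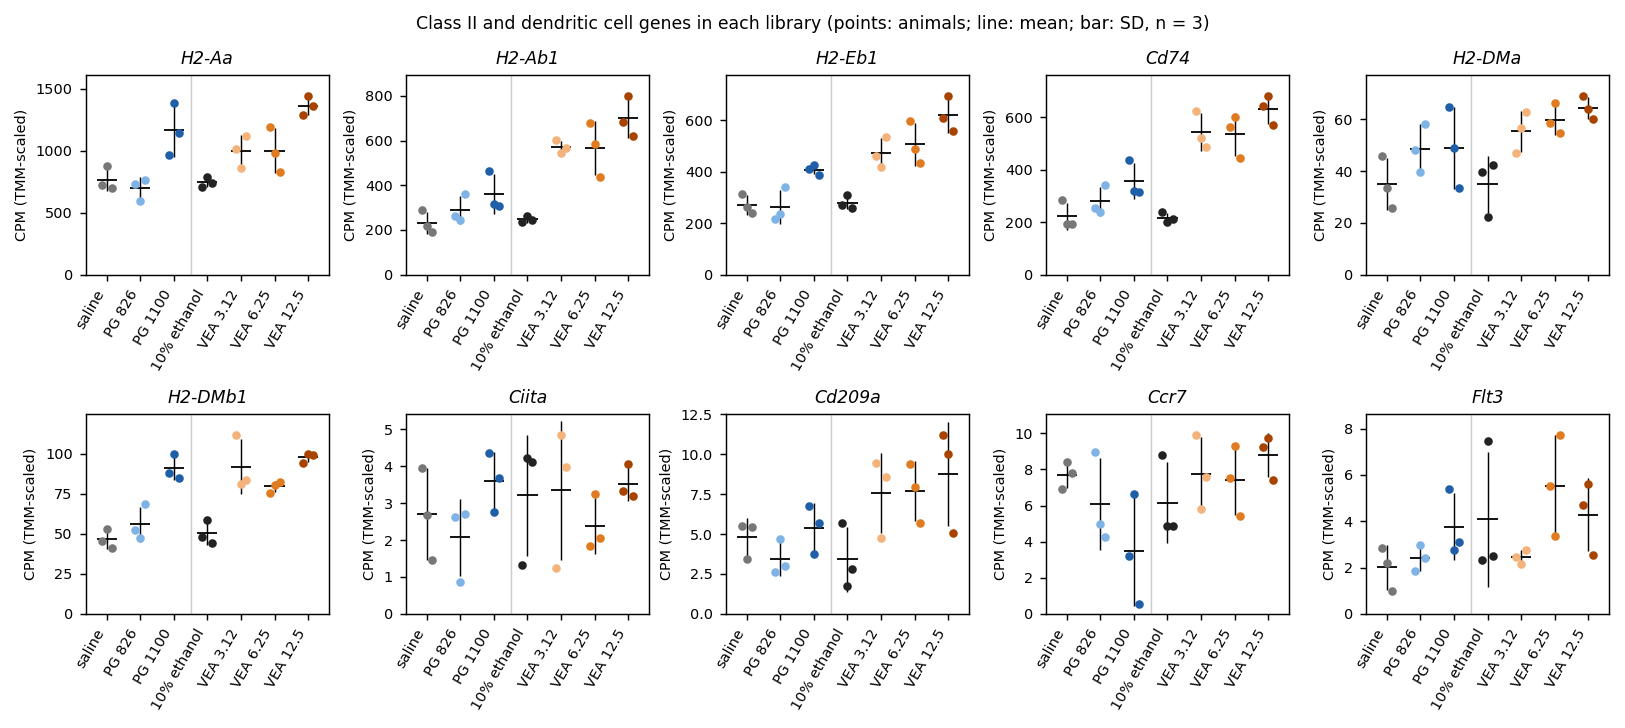
CPM (TMM-scaled, linear axes from 0) of the 10 genes in each of the 21 libraries, with the PG arm left and the VEA arm right of the grey line; points are animals, lines means and bars SD (n = 3). All 9 VEA animals lie above all 3 ethanol animals for the chains, Cd74, H2-DMa and H2-DMb1, and Ciita shows no such separation.

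Among the chain genes, H2-Ab1 moved most. H2-Ab1 was at 236, 263 and 243 CPM in the ethanol animals, 602, 546 and 566 at VEA 3.12, 677, 584 and 436 at VEA 6.25 and 685, 800.1 and 623 at VEA 12.5. The lowest VEA animal stood well above the highest ethanol animal. The rises were 1.21 ± 0.17 (adjusted p = 1.80e-05), 1.19 ± 0.17 (adjusted p = 2.24e-05) and 1.51 ± 0.17 (adjusted p = 2.69e-07) with dose. H2-Eb1 was at 272, 308 and 259 CPM with ethanol, 459.6, 420.0 and 537 at 3.12, 597, 490.0 and 432 at 6.25 and 607, 695 and 558 at 12.5. Its groups did not overlap with ethanol at any dose, and it rose by 0.75 ± 0.15 (adjusted p = 0.00153), 0.86 ± 0.15 (adjusted p = 0.000342) and 1.15 ± 0.15 (adjusted p = 1.98e-06). H2-Aa was at 706, 786 and 743 CPM with ethanol, 1017, 857 and 1119 at 3.12, 1193, 983 and 828 at 6.25 and 1289.9, 1443 and 1358 at 12.5. Here too every VEA animal was above every ethanol animal, but the step at the lower doses was small. H2-Aa rose at 12.5, by 0.87 ± 0.15 (adjusted p = 8.48e-05). Its values at 3.12 and 6.25 were 0.42 ± 0.15 (adjusted p = 0.0884) and 0.43 ± 0.15 (adjusted p = 0.0819), short of the threshold, which it passed at both doses when only the groups compared were fitted (adjusted p 0.0199 and 0.0415) and at 6.25 without animal 65 (0.0451).

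Under PG the 3 chains rose by similar amounts at 1100. H2-Aa was at 723, 873 and 702 CPM with saline, 735, 591 and 766 at PG 826 and 962, 1387 and 1144 at PG 1100. The 3 animals at 1100 lay above all saline and PG 826 animals. H2-Aa rose by 0.60 ± 0.15 (adjusted p = 0.00705) at 1100. H2-Ab1 was at 287, 216 and 192 CPM with saline, 264, 246 and 362 at 826 and 466, 314 and 307 at 1100. Animal 27 was the high one at 1100, and the other two lay below the highest PG 826 animal. The rise at 1100 was 0.65 ± 0.17 (adjusted p = 0.0148). H2-Eb1 was at 315, 262 and 239.9 CPM with saline, 215, 235 and 339.8 at 826 and 412, 426 and 388 at 1100, where it rose by 0.58 ± 0.15 (adjusted p = 0.0119) with all 3 animals above the other 6. Single animals decided several of these PG calls. H2-Ab1 lost its call without saline 8 (adjusted p 0.0719), saline 10 (0.102) or PG 1100 animal 27 (0.127), H2-Aa without animal 28 (0.0933) and H2-Eb1 without saline 10 (0.0811), and all 3 when only the groups compared were fitted.

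The invariant chain and the DM exchanger rose with the chains. Cd74 was at 238, 200.4 and 210.5 CPM with ethanol, 624, 519.7 and 487 at VEA 3.12, 562, 599 and 443 at 6.25 and 641, 681 and 570.4 at 12.5. All 9 VEA animals were above the ethanol animals, and the 3 dose groups overlapped one another. Cd74 rose by 1.33 ± 0.16 (adjusted p = 8.18e-07), 1.31 ± 0.16 (adjusted p = 1.43e-06) and 1.54 ± 0.16 (adjusted p = 2.21e-08), and these calls held under every alternative run. Under PG, Cd74 was at 282, 194 and 192 CPM with saline, 254, 239 and 343 at 826 and 437, 319.8 and 314 at 1100. The PG 826 group overlapped both neighbours. The rise at 1100 was 0.68 ± 0.16 (adjusted p = 0.00539), and it lost its call without saline 10 (adjusted p 0.0502) and when only the groups compared were fitted (0.0713).

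H2-DMb1, the DM beta chain, was at 45.4, 53.2 and 41.4 CPM with saline, 52.4, 47.3 and 68.3 at PG 826 and 88.1, 99.6 and 85.1 at PG 1100. All 3 animals at 1100 were above the other 6, and it rose by 0.96 ± 0.15 (adjusted p = 4.47e-05), the only call of the 10 genes at PG 1100 against saline that held under every alternative run. H2-DMb1 was at 48.1, 58.7 and 44.6 CPM with ethanol, 112, 81.0 and 83.4 at VEA 3.12, 75.7, 80.8 and 82.3 at 6.25 and 94.0, 99.7 and 99.4 at 12.5. No VEA animal overlapped the ethanol range. The rises were 0.87 ± 0.15 (adjusted p = 0.000318), 0.66 ± 0.15 (adjusted p = 0.00699) and 0.95 ± 0.15 (adjusted p = 3.47e-05), the second of which lost its call without ethanol animal 14 (adjusted p 0.05001). H2-DMa, the alpha chain, was at 39.7, 22.4 and 42.4 CPM with ethanol, 46.8, 56.5 and 62.8 at 3.12, 58.7, 66.4 and 54.7 at 6.25 and 69.0, 63.9 and 60.2 at 12.5. Ethanol animal 13 was the low one of its group, and all VEA animals lay above the 3. H2-DMa rose at 6.25 by 0.78 ± 0.23 (adjusted p = 0.0353) and at 12.5 by 0.89 ± 0.22 (adjusted p = 0.00932), and its value at 3.12 was 0.67 ± 0.23 (adjusted p = 0.0817), past the threshold with no filter on low counts (0.00412) and when only the groups compared were fitted (0.0407). Without ethanol 13 the adjusted p was 0.0716 at 12.5 and 0.196 at 6.25, and the 6.25 call was also lost without ethanol 12 (0.0554) or any 1 of the VEA 6.25 animals (0.0678, 0.144 and 0.0704). With PG, H2-DMa was at 45.8, 33.5 and 25.9 CPM with saline, 48.3, 39.6 and 58.2 at 826 and 64.8, 48.9 and 33.3 at 1100, groups that overlapped, and its value at 1100 was 0.49 ± 0.23 (adjusted p = 0.220), past the threshold without animal 30 (0.0487). The near copies H2-DMb2 and H2-Eb2 had 59 and 405 counts over all 21 libraries, and how reads shared with them were assigned is not given in the sources used here.

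**Figure D2:**
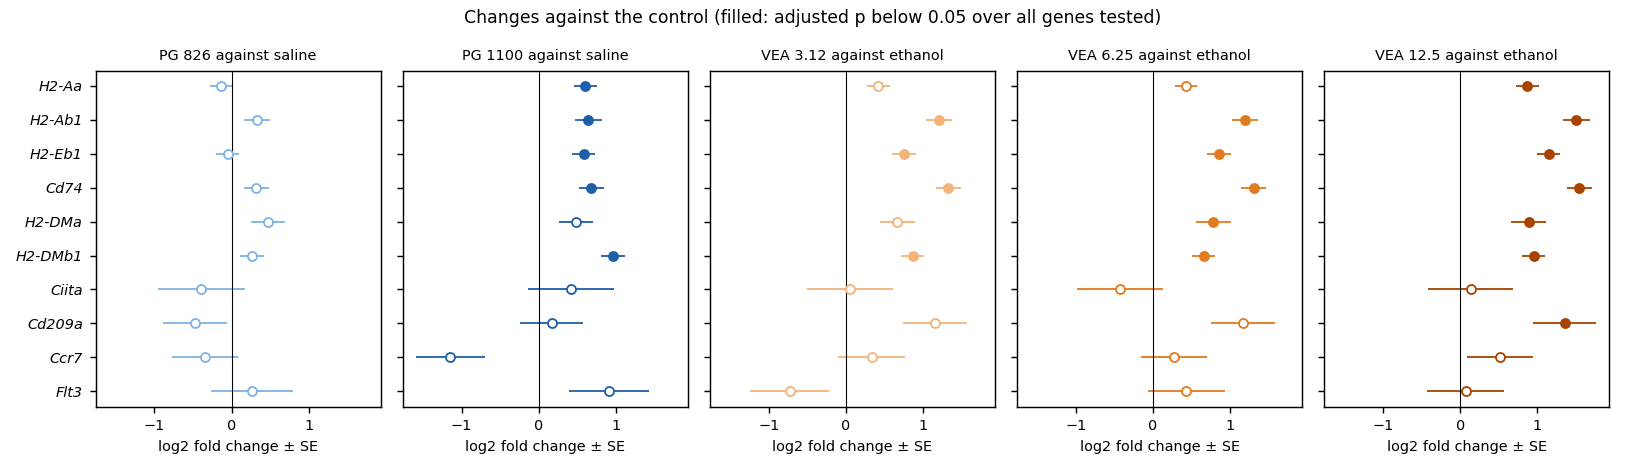
Log2 fold change ± SE of the 10 genes against the control in 5 comparisons; filled points had an adjusted p below 0.05 over all genes tested. The class II chain and loading genes lie right of 0 at PG 1100 and at each VEA dose, and the wide bars of Ciita, Cd209a, Ccr7 and Flt3 go with their low counts.

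Ciita did not pass the test in any comparison. It was at 3.95, 2.68 and 1.46 CPM with saline, 2.63, 0.870 and 2.71 at PG 826 and 4.35, 2.77 and 3.67 at PG 1100. In the VEA arm it was at 1.32, 4.21 and 4.10 CPM with ethanol, 1.24, 4.84 and 3.97 at 3.12, 1.83, 3.25 and 2.05 at 6.25 and 3.32, 4.06 and 3.20 at 12.5. The treated groups overlapped their controls throughout, although all 3 PG 1100 animals lay just above the PG 826 animals, and these levels rest on 10 to 50 counts per library. The change at VEA 12.5 was 0.13 ± 0.55 (adjusted p = 0.927) with a 95% interval of -0.97 to 1.24, and at PG 1100 it was 0.42 ± 0.56 (adjusted p = 0.759) with an interval of -0.71 to 1.54. The interval at VEA 12.5 covers the change of H2-Aa (0.87) and of H2-Eb1 (1.15), so a change of that size in Ciita is not excluded. The larger changes of H2-Ab1 (1.51) and Cd74 (1.54) lie above it. At 3.12 Ciita gave 0.05 ± 0.55 (adjusted p = 0.978). Its interval there, -1.07 to 1.18, lies below H2-Ab1 (1.21) and Cd74 (1.33). At 6.25 Ciita gave -0.43 ± 0.56 (adjusted p = 0.750). That interval, -1.57 to 0.71, covers H2-Aa (0.43) and H2-DMb1 (0.66) and lies below H2-DMa (0.78), H2-Eb1 (0.86), H2-Ab1 (1.19) and Cd74 (1.31).

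Of the 3 dendritic cell genes, Cd209a rose with VEA at 12.5. Cd209a was at 5.71, 1.73 and 2.81 CPM with ethanol, 9.42, 4.73 and 8.60 at VEA 3.12, 9.39, 7.96 and 5.66 at 6.25 and 11.2, 9.99 and 5.05 at 12.5. Ethanol animal 12 overlapped the low animal of the 12.5 group, and counts ran from 16 to 145 per library. The rise at 12.5 was 1.36 ± 0.41 (adjusted p = 0.0282), and it lost its call without ethanol 13 (adjusted p 0.173), ethanol 14 (0.111), VEA 66 (0.136) or VEA 68 (0.0994). Its values at 3.12 and 6.25 were 1.15 ± 0.41 (adjusted p = 0.101) and 1.17 ± 0.42 (adjusted p = 0.0925), each past the threshold only without ethanol 12 (0.0282 and 0.0267). With PG it was at 5.53, 3.41 and 5.45 CPM with saline, 2.63, 4.70 and 3.02 at 826 and 6.76, 3.77 and 5.68 at 1100, all overlapping, with a value of 0.17 ± 0.41 (adjusted p = 0.883) at 1100.

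Ccr7 was at 6.91, 8.40 and 7.78 CPM with saline, 8.98, 4.96 and 4.27 at PG 826 and 3.19, 6.64 and 0.557 at PG 1100. All 3 animals at 1100 lay below the saline animals, and animal 30 held 5 counts. The difference was -1.15 ± 0.45 (adjusted p = 0.122) with a 95% interval of -2.06 to -0.24, short of the threshold, which it passed without animal 28 (adjusted p 0.0116) and with no filter on low counts (0.0464). In the VEA arm Ccr7 was at 8.78, 4.86 and 4.86 CPM with ethanol, 9.89, 5.80 and 7.61 at 3.12, 7.55, 9.32 and 5.42 at 6.25 and 9.26, 9.75 and 7.40 at 12.5. Ethanol animal 12 lay within the range of the VEA animals, and the value at 12.5 was 0.51 ± 0.43 (adjusted p = 0.541). Flt3 was at 2.86, 2.19 and 0.973 CPM with saline, 1.86, 2.96 and 2.40 at 826 and 5.41, 2.77 and 3.12 at 1100, and at 2.31, 7.45 and 2.48 with ethanol, 2.47, 2.15 and 2.76 at 3.12, 5.50, 3.35 and 7.71 at 6.25 and 4.71, 5.61 and 2.52 at 12.5. Ethanol animal 13 stood apart from its group. The values for Flt3 were 0.91 ± 0.52 (adjusted p = 0.346) at PG 1100 and 0.07 ± 0.50 (adjusted p = 0.959) at VEA 12.5. Of the ligands of these receptors (Ccl19, Ccl21a and Flt3l), none passed the test at any VEA dose by edgeR, DESeq2 or limma-voom, with 0, 1 and 0 at an unadjusted p below 0.05 at 3.12, 6.25 and 12.5. Ccl21a, a Ccr7 ligand of lymphatic vessels, rose at PG 1100 by 1.06 ± 0.16 (adjusted p = 1.54e-05), from 64.8 ± 3.71 to 135 ± 27.2 CPM (SD, n = 3). The counts of Ccl21a may be split with near-identical copies of the gene.

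Within the class II genes, H2-Aa and the other chain genes did not keep 1 proportion. The CPM ratio of H2-Ab1 to H2-Aa was 0.332 ± 0.00433 (SD, n = 3) with ethanol, 0.578 ± 0.0667 at VEA 3.12, 0.563 ± 0.0336 at 6.25 and 0.515 ± 0.0499 at 12.5. The lowest VEA animal, at 0.459, was above the highest ethanol animal, at 0.335. For Cd74 to H2-Aa the ratios were 0.292 ± 0.0414, 0.552 ± 0.101, 0.538 ± 0.0690 and 0.463 ± 0.0391, and for H2-Eb1 to H2-Aa 0.375 ± 0.0232, 0.474 ± 0.0196, 0.507 ± 0.0131 and 0.455 ± 0.0379. In the PG arm the H2-Ab1 ratio was 0.306 ± 0.0803 with saline, 0.416 ± 0.0565 at 826 and 0.326 ± 0.139 at 1100. PG 1100 spread widely, from 0.226 in animal 28 to 0.484 in animal 27. Around the group means of log2 CPM in the 21 libraries, H2-Ab1 varied with Cd74 (r = 0.87) and with H2-Eb1 (0.76), and H2-Aa gave 0.53 with H2-Eb1, 0.44 with H2-DMb1, 0.21 with H2-Ab1 and -0.01 with Cd74. These points share library and scaling. Ratios and correlations were chosen after the values were seen and are descriptions, with no test.

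**Figure D3:**
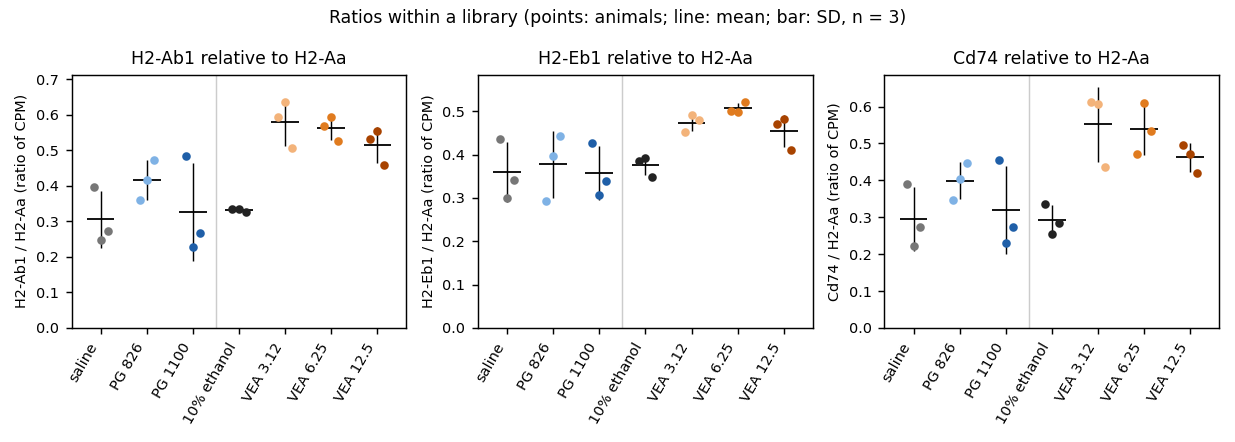
Ratio of CPM within each library for H2-Ab1, H2-Eb1 and Cd74 relative to H2-Aa (linear axes from 0; points are animals, lines means, bars SD, n = 3). All VEA animals lie above all ethanol animals in each panel. The H2-Ab1 ratio runs from 0.226 to 0.484 in the PG 1100 animals and from 0.247 to 0.397 in their saline controls.

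Between doses, PG at 1100 stood above PG at 826 for 3 of the 10 genes (background 2.85% higher and 5.55% either way): H2-Aa by 0.74 ± 0.15 (adjusted p = 0.00132), H2-DMb1 by 0.70 ± 0.15 (adjusted p = 0.00323) and H2-Eb1 by 0.63 ± 0.15 (adjusted p = 0.00772). The H2-Eb1 call was lost without PG 826 animal 22 (adjusted p 0.0703) or 23 (0.0636). H2-Ab1 and Cd74 gave 0.32 ± 0.17 (adjusted p = 0.336) and 0.36 ± 0.16 (adjusted p = 0.223). VEA at 12.5 against 3.12 gave no call among the 10 by edgeR, DESeq2 or limma-voom, with 2 at an unadjusted p below 0.05. By edgeR or limma-voom none of the 14727 genes was called there (background 0%), and 2 were by DESeq2. H2-Aa, H2-Ab1 and H2-Eb1 were higher in all 3 animals at 12.5 than in any at 3.12, a separation found for 14.3% of all genes in either direction. Their differences were 0.45 ± 0.15 (adjusted p = 0.710), 0.30 ± 0.17 (adjusted p = 0.982) and 0.39 ± 0.15 (adjusted p = 0.823), with 95% intervals of 0.15 to 0.75, -0.05 to 0.64 and 0.09 to 0.70.

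The rise at VEA 12.5 over ethanol was set against the rise at PG 1100 over saline, for each gene, by an interaction contrast; the agents differ in dose and in control. None of the 10 genes passed by edgeR (background 0.19%), with 5 of 10 at an unadjusted p below 0.05, 1 called by DESeq2 and 0 by limma-voom. Cd74 gave 0.86 ± 0.23 (adjusted p = 0.102) more under VEA, H2-Ab1 0.86 ± 0.24 (adjusted p = 0.151), H2-Eb1 0.56 ± 0.21 (adjusted p = 0.416), H2-Aa 0.27 ± 0.21 (adjusted p = 0.845) and H2-DMb1 -0.01 ± 0.22 (adjusted p = 1.000). Cd74 was the DESeq2 call (adjusted p 0.0401), and Cd74 and H2-Ab1 passed with no filter on low counts (0.00658 and 0.00704) and without PG 1100 animal 27 (0.0260 and 0.0260). Ccr7 gave 1.66 ± 0.62 (adjusted p = 0.400) and Cd209a 1.19 ± 0.58 (adjusted p = 0.627). H2-DMa gave 0.40 ± 0.32 (adjusted p = 0.845), Ciita -0.28 ± 0.78 (adjusted p = 0.977) and Flt3 -0.84 ± 0.72 (adjusted p = 0.867).

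Other genes of the class II route rose in part. Of 14 tested (peptide cutters, DO chains, RFX subunits, costimulators), 6 rose at VEA 12.5 and 4 at PG 1100, none fell, and the median change was 0.83 at VEA 12.5 and 0.33 at PG 1100. For this list and those that follow, 3.42%, 3.51% and 5.48% of all genes tested were called higher with rising VEA dose. At PG 1100 the share was 4.09%. Called lower were 623 of 14727 genes at VEA 12.5 and 475 at PG 1100. The count of this list at VEA 12.5 was 1 without ethanol 12, 2 without VEA 12.5 animal 68 or 70, and 3 without ethanol 13 or 14. Ifi30, the thiol reductase that unfolds antigens, rose from 85.8 ± 8.70 to 162 ± 6.14 CPM (SD, n = 3), by 0.92 ± 0.16 (adjusted p = 0.000111), and at PG 1100 by 0.87 ± 0.16 (adjusted p = 0.000286). Ctss, the protease that trims the invariant chain, rose at PG 1100 by 1.76 ± 0.27 (adjusted p = 0.000347), from 368 ± 91.0 to 1242 ± 650.4 CPM. Cd86, a costimulator of T cells, rose at PG 1100 by 2.21 ± 0.52 (adjusted p = 0.00536). It started low, at 0.987, 1.10 and 2.24 CPM with saline (42 counts in the group), and was at 8.21, 7.64 and 4.34 at PG 1100. These 4 calls held under every alternative run.

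Class I presentation genes (H2-K1, Psmb8, Tap1 and others) rose at VEA 12.5 in 5 of 9 (3 without ethanol 13 or VEA 12.5 animal 68), and in none at the lower doses or with PG 1100 by edgeR. At an unadjusted p below 0.05 there were 4 at VEA 3.12, 1 at 6.25 and 1 at PG 1100. DESeq2 called 1, 0 and 0 of them, and limma-voom 0, 0 and 0. H2-K1, a class I heavy chain, rose at 12.5 by 0.70 ± 0.14 (adjusted p = 0.000975) and Tap1, the peptide transporter, by 1.08 ± 0.24 (adjusted p = 0.00199). In the interferon-gamma axis, which drives Ciita in many cells, Ifng itself was at 0 counts in 16 of 21 libraries with 30 counts in all, and was not tested. Of the 9 tested genes of that axis, 2 rose at VEA 12.5 (Ifngr2 by 0.73 ± 0.17, adjusted p = 0.00448, Cxcl9 by 2.19 ± 0.62, adjusted p = 0.0195), and the Cxcl9 call was lost without ethanol 13 or 14 or VEA 12.5 animal 68 (adjusted p up to 0.281 over the alternatives). At PG 1100, 2 fell: Irf1 by 0.57 ± 0.15 (adjusted p = 0.0138) and Gbp2 by 0.61 ± 0.19 (adjusted p = 0.0460). The first was lost without PG 1100 animal 27 or 28 (adjusted p up to 0.0973 over the alternatives) and the second in 8 of 13 alternatives, without saline 6 or 8 or any 1 of the PG 1100 animals among them.

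Genes that mark dendritic cell subsets rose in part under VEA. Of 7 type 2 conventional dendritic cell genes, 4 rose at 12.5, and the summed level of the list was 138 to 146 CPM with ethanol and 259.8 to 267 at VEA 12.5. Mgl2, a lectin of these cells, rose at 12.5 by 1.28 ± 0.17 (adjusted p = 1.37e-06), Itgax, the CD11c integrin also carried by alveolar macrophages, by 1.08 ± 0.20 (adjusted p = 0.000290), and Sirpa, also on macrophages, by 0.70 ± 0.16 (adjusted p = 0.00246). Most of the sum was Sirpa, Mgl2 and Itgax. Irf4, Clec10a and Zbtb46 of the same list were not called, and each overlapped between ethanol and VEA 12.5. Irf4 was at 2.31, 2.05 and 4.10 CPM with ethanol and 3.39, 3.09 and 0.842 at VEA 12.5. Clec10a was at 2.74, 15.0 and 8.09 and then 7.33, 11.6 and 10.9 CPM, and Zbtb46 at 3.07, 0.864 and 1.19 and then 2.93, 3.33 and 2.61. Of 7 type 1 genes, 5 rose at 12.5, and Cadm1, which lung epithelium also makes, fell there by 0.42 ± 0.13 (adjusted p = 0.0342), a call lost in 7 of 13 alternatives, any of ethanol 13, ethanol 14 or the VEA 12.5 animals left out among them. Xcr1, the chemokine receptor that marks these cells, rose from 2.99 ± 1.75 to 13.3 ± 2.17 CPM, by 2.14 ± 0.38 (adjusted p = 0.000132), and Wdfy4, needed for cross-presentation, by 1.24 ± 0.21 (adjusted p = 0.000104). Clec9a, a receptor for dead cells that also defines the type 1 subset, went the other way, at 15.5, 16.6 and 23.0 CPM with ethanol and 13.7, 13.2 and 12.7 at VEA 12.5. All 3 treated animals lay below the ethanol animals, with a value of -0.48 ± 0.25 (adjusted p = 0.259). The type 1 list summed to 410.3 to 485 CPM with ethanol and 384 to 457 at VEA 12.5, groups that overlapped. Most of that sum was Cadm1, at 335, 386 and 351 CPM with ethanol and 276, 281 and 247 at VEA 12.5. The sum therefore says little of the other type 1 genes. The count of type 1 genes called higher was 2 without ethanol 12 and 3 without ethanol 14 or any 1 of the VEA 12.5 animals. Of the 7 tested genes of mature, migratory dendritic cells, 4 rose at 12.5. The chemokine gene Ccl17 rose from 12.4 ± 1.95 to 69.9 ± 9.86 CPM, by 2.49 ± 0.22 (adjusted p = 2.47e-10), and Ccl22 by 2.99 ± 0.43 (adjusted p = 6.67e-06). Ccl22 started low, at 1.10, 0.972 and 1.40 CPM with ethanol (32 counts in the group), against 8.56, 9.42 and 9.85 at VEA 12.5. Socs2 and Cd200, the most abundant genes of that list, were not called. With ethanol Socs2 was at 161, 177 and 153 CPM, and at VEA 12.5 at 142, 162 and 124. Cd200 was at 76.2, 76.0 and 97.1 CPM with ethanol and 78.5, 75.0 and 84.5 at VEA 12.5, so both overlapped. Of 5 plasmacytoid dendritic cell genes, 1 rose at 12.5, Bst2, which interferon also drives in other cells, by 1.09 ± 0.25 (adjusted p = 0.00374), a call lost without VEA 12.5 animal 68 (0.0534). The median change of that list was -0.27. Tcf4, a factor these cells need and other lung cells also express, was at 424, 411 and 463 CPM with ethanol and 354, 339.8 and 330.2 at VEA 12.5, without overlap, and gave -0.34 ± 0.13 (adjusted p = 0.0822). Siglech, a surface lectin of these cells, was at 4.17, 3.56 and 4.96 and 1.23, 1.71 and 3.37 CPM, likewise lower in all 3 treated animals, with -1.01 ± 0.61 (adjusted p = 0.349). Clec9a, Tcf4, Siglech, Socs2 and Cd200 were picked out after their values were seen. Of all genes tested, 30.1% were separated from ethanol without overlap at VEA 12.5, in either direction.

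With PG at 1100 the subset genes passed the test as follows: 2 of 7 type 2 genes rose (Itgax by 1.02 ± 0.20, adjusted p = 0.000745 and Sirpa by 0.59 ± 0.16, adjusted p = 0.0143), 2 of 7 mature genes rose (Fscn1 by 1.19 ± 0.29, adjusted p = 0.00768 and Ccl17 by 0.87 ± 0.22, adjusted p = 0.0104), and of 7 type 1 genes none rose and 1, Cadm1, fell (-0.41 ± 0.13, adjusted p = 0.0483). Itgax held under every alternative. Sirpa was lost without saline 8 or PG 1100 animal 27 or 28 (adjusted p up to 0.137 over the alternatives), Fscn1 without saline 8 or PG 1100 animal 27 (adjusted p up to 0.141 over the alternatives), Ccl17 without saline 10 or PG 1100 animal 30 (adjusted p up to 0.0975 over the alternatives), and Cadm1 in 8 of 13 alternatives, saline 6, saline 8 or PG 1100 animal 28 or 30 left out among them. Of these subset genes, Ccl17 passed the test of the difference between agents, by 1.62 ± 0.31 (adjusted p = 0.0118).

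**Figure D4:**
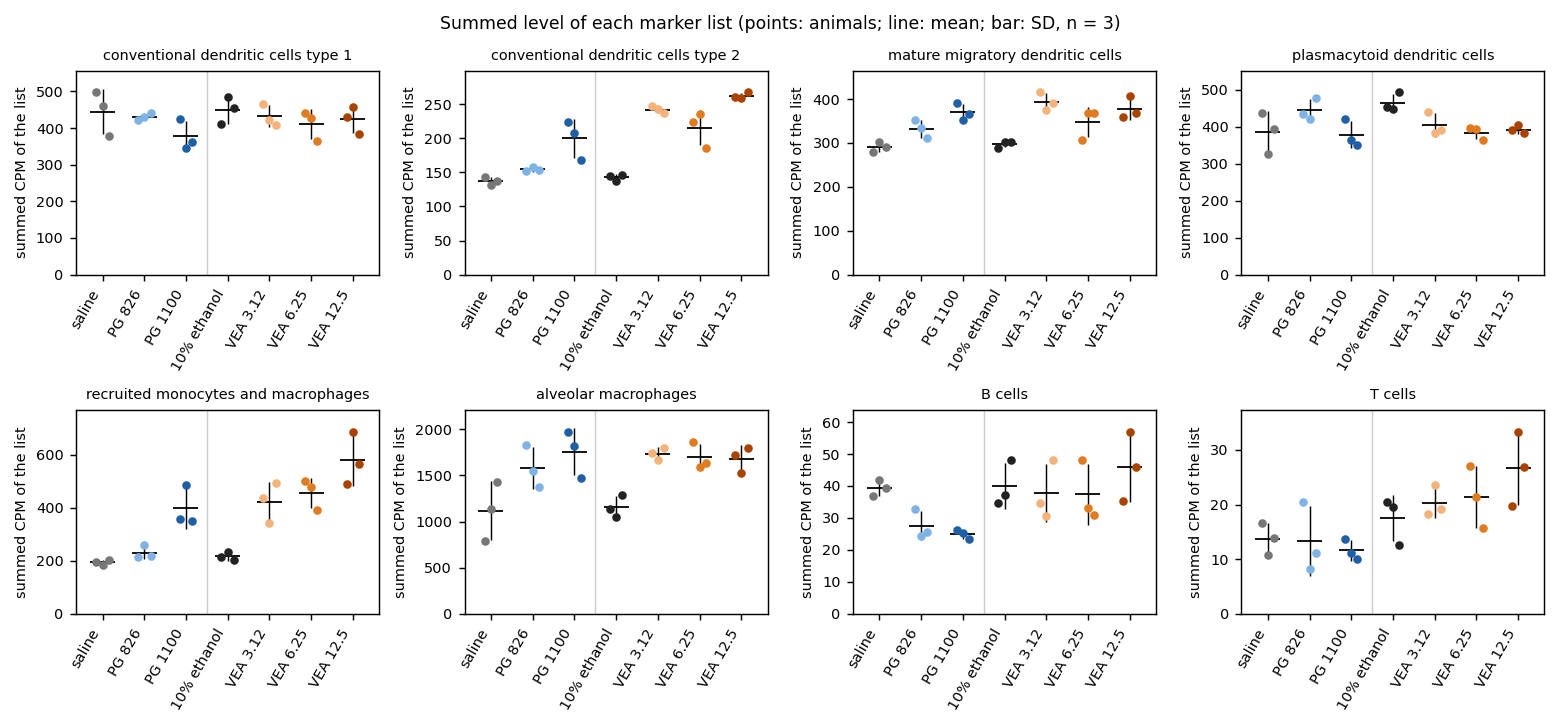
Summed CPM of 8 marker lists in each library (linear axes from 0; points are animals, lines means, bars SD, n = 3). The type 2 dendritic cell and recruited monocyte and macrophage sums of every VEA animal and every PG 1100 animal lie above their controls, while B cell sums at PG 826 and at PG 1100 lie below saline. Cadm1 makes up most of the type 1 sums, Sirpa with Mgl2 and Itgax most of the type 2 sums, Tcf4 most of the plasmacytoid sums, and Socs2 with Cd200 most of the mature sums.

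Marker genes of other cell types, several of which carry class II, were read in the same libraries. Recruited monocyte and macrophage genes, of which 6, 6 and 7 of 8 rose with VEA dose and 4 with PG 1100, summed to 185 to 202 CPM with saline, 201 to 235 with ethanol, 349 to 486 at PG 1100 and 491 to 687 at VEA 12.5. C1qa, a complement gene of tissue macrophages, rose by 1.92 ± 0.17 (adjusted p = 2.23e-10) at VEA 12.5 and by 1.53 ± 0.17 (adjusted p = 1.04e-07) at PG 1100. At VEA 12.5 and PG 1100 most of the sum came from C1qa, C1qb and C1qc. Ly6c2, of the same list, was not called at PG 1100 or any VEA dose. It was at 45.3, 47.1 and 39.3 CPM with ethanol and 37.5, 89.9 and 46.9 at VEA 12.5. Alveolar macrophage genes summed to 1048 to 1282 CPM with ethanol and 1524 to 1801 at VEA 12.5, and 787 to 1427 with saline and 1473 to 1972 at PG 1100. At PG 826, where no class II gene was called, the sum was 1373 to 1825 CPM, a range that overlapped saline and PG 1100. Of 7 such genes, 3 rose at VEA 12.5 (Chil3, Marco and Atp6v0d2) and 0 fell by edgeR, against 4 and 2 with no filter on low counts. Chil3, a chitinase-like protein and the list's most abundant gene, rose from 491 ± 36.4 to 923 ± 72.4 CPM, by 0.91 ± 0.16 (adjusted p = 0.000125). Fabp4, a lipid carrier that is also made by vessels, was at 248, 167 and 401 CPM with ethanol and 78.2, 114 and 77.8 at VEA 12.5 (-1.59 ± 0.75, adjusted p = 0.234). Ear2, an eosinophil-associated ribonuclease, was at 125, 143 and 168 and 94.1, 92.9 and 82.7 CPM (-0.69 ± 0.27, adjusted p = 0.126), so both were lower in all 3 treated animals without passing the test, and both were picked out after their values were seen. A separation in either direction was found there for 30.1% of all genes tested. At PG 1100, Chil3 and Atp6v0d2 rose and Krt79 fell by 0.91 ± 0.25 (adjusted p = 0.0209), a call lost in 5 of 13 alternatives, saline 8, saline 10 or PG 1100 animal 28 left out among them (up to 0.182). At PG 826, 1 of the 7 rose by edgeR, Chil3, where 0.136% of all genes were called either way. It was at 376, 590 and 550 CPM with saline and 1063, 957 and 874 at PG 826, and that call held under every alternative run. B cell genes summed to 34.8 to 48.2 CPM with ethanol and 35.2 to 57 at VEA 12.5, groups that overlapped, and 1 of 6 tested rose at 12.5 (Fcer2a, also found on macrophages, by 1.96 ± 0.50, adjusted p = 0.00752). At PG 1100 the B cell sum was 23.4 to 26.1 CPM and at PG 826 it was 24.4 to 32.7, against 37 to 41.8 with saline. Pax5, the B cell identity factor, was at 0 in 20 of 21 libraries. The 5 T cell genes gave no call at VEA 12.5 or PG 1100 by edgeR, DESeq2 or limma-voom, and none had an unadjusted p below 0.05. Alveolar type II genes summed to 25194 to 29757 CPM with ethanol, 26230.0 to 28601 at VEA 12.5, 26268 to 36653 with saline and 33462 to 52122 at PG 1100. Within that list of 6, 2 rose at VEA 12.5 and 3 at PG 1100 (Sftpd, Lamp3 and Sftpb, 1 of them when only the groups compared were fitted). Sftpd, the surfactant lectin, rose from 1272 ± 18.6 to 3096 ± 276 CPM, by 1.28 ± 0.15 (adjusted p = 3.07e-07), and also at VEA 3.12 (1.24 ± 0.15), VEA 6.25 (0.94 ± 0.15) and PG 1100 (1.16 ± 0.15), calls that held under every alternative run. Lamp3, a lysosomal protein of type II cells and of mature dendritic cells, rose at VEA 12.5 by 0.53 ± 0.14 (adjusted p = 0.00973). The part of any of these cell types in the class II values was not tested.

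Of 10114 other genes at a mean of at least 5 CPM, those whose log2 CPM over the 21 libraries was most like the mean of H2-Aa, H2-Ab1, H2-Eb1 and Cd74 were Gdf15, a stress cytokine (Pearson r 0.938, Spearman rho 0.895), Cotl1, an actin-binding protein (0.936 and 0.899), Tnfrsf9, the costimulatory receptor 4-1BB (0.933 and 0.875), Steap4, a metalloreductase (0.929 and 0.896), and Scimp, an adaptor found at class II rich membranes (0.918 and 0.923). The points share groups, libraries and scaling, so the likeness is a description. These genes were picked on the same values that are tested next, so their changes follow in part from the pick. At VEA 12.5 the changes were 3.91 ± 0.33 (adjusted p = 1.63e-10) for Gdf15, 1.37 ± 0.13 (adjusted p = 1.97e-09) for Cotl1, 4.78 ± 0.35 (adjusted p = 4.79e-12) for Tnfrsf9, 2.73 ± 0.37 (adjusted p = 1.99e-06) for Steap4 and 1.25 ± 0.34 (adjusted p = 0.0140) for Scimp. The largest of these start from low levels. With ethanol, Gdf15 was at 1.43, 2.38 and 2.05 CPM, Tnfrsf9 at 2.31, 1.08 and 0.647 and Steap4 at 2.74, 2.27 and 3.56. At PG 1100 Tnfrsf9 rose by 2.23 ± 0.34 (adjusted p = 2.67e-05), Gdf15 by 1.21 ± 0.33 (adjusted p = 0.0156) and Cotl1 by 0.56 ± 0.13 (adjusted p = 0.00447). The Gdf15 call at PG 1100 was lost without saline 8, saline 10 or PG 1100 animal 28 or 30 (adjusted p up to 0.201 over the alternatives), and the Scimp call at VEA 12.5 without ethanol 14 or VEA 68 (adjusted p up to 0.102 over the alternatives).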

How the data were processed

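Lung RNA of 21 mice was measured in 7 groups of 3, 1 library per animal, grouped by the sample labels. The files deposited by the authors hold raw counts per gene symbol. Bowtie2, bedtools and the assembly mm10 are named, with no version, per the submitters' processing notes, and the annotation and strand setting used for counting are not given in the sources used here. Each file has 23282 rows and 23238 symbols, and rows of the 35 repeated symbols were summed. Counts of 8778028 to 11783151 per library set the precision.

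edgeR 4.0.16 in R 4.3.3 was run with filterByExpr (14727 genes kept), TMM scaling, 1 mean per group over all 21 libraries and a robust quasi-likelihood fit with 14 residual degrees of freedom. In each of 9 comparisons a call needed a p below 0.05 after Benjamini-Hochberg adjustment over all tested genes. SE is the absolute log2 fold change over the square root of F. Alternatives tried were DESeq2 1.42.0, limma-voom (limma 3.58.1), RLE size factors in edgeR, a fit of only the groups compared, no filter on low counts, leaving out Rn45s and haemoglobin, leaving out the 3 libraries with the fewest genes, and leaving out each animal. The script was tested on simulated data.

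All 10 genes were tested in every comparison and their levels are given in every group, with log2 changes printed for part of them. From 13 other lists, some called genes were named, at most 4 per list and comparison, mostly those of smallest p. A gene left unnamed may have been called. A called gene that this rule names is not reported here. Genes most like the class II profile were the 5 with the highest Pearson correlation of log2 CPM (prior count 2). The genes, lists and comparisons were chosen with earlier results of these data known. Positions are those of GENCODE M21 and promoter windows those of RefSeq, both on GRCm38, the assembly that mm10 names. Animals of 1 group differed by more than counting error, with a chi-square per degree of freedom of 8.14 to 40.48.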

Additional observations from a re-analysis of the deposited data

Results flagged for a closer look

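The rise at VEA 12.5 over ethanol and the rise at PG 1100 over saline differed, by the interaction contrast of edgeR, for 4 of the genes named in the report. Ccl17, a chemokine gene of mature dendritic cells, gave 1.62 ± 0.31 (adjusted p = 0.0118) more under VEA on the log2 scale, with a range of adjusted p of 3.90e-06 to 0.0812 over 19 alternatives. The test was passed in all of these except limma-voom. Gdf15 gave 2.70 ± 0.46 (adjusted p = 0.00420), range 6.95e-06 to 0.156, again missed with limma-voom alone. Tnfrsf9 gave 2.55 ± 0.50 (adjusted p = 0.0162), range 3.41e-05 to 0.251, missed with limma-voom and without saline 10, ethanol 13 or ethanol 14. Cotl1 gave 0.81 ± 0.18 (adjusted p = 0.0449), range 0.00144 to 0.128, missed in 12 of the 19. Gdf15, Tnfrsf9 and Cotl1 were picked for likeness to the class II profile in these same libraries. Their values here are not independent of that pick. None of the 10 class II and dendritic cell genes passed this test by edgeR (5 at an unadjusted p below 0.05, 1 by DESeq2, 0 by limma-voom).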

How the results depend on the processing

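Of the 10 genes, the count that rose at PG 1100 (5) fell to 1 when only the groups compared were fitted. The count for the difference between agents (0) became 1 with DESeq2 and 2 with no filter on low counts. With 1 animal left out at a time, the counts ran from 2 to 6 at PG 1100, 4 to 5 at VEA 3.12, 4 to 5 at 6.25, 5 to 7 at 12.5, 2 to 3 for PG 1100 against PG 826 and 0 to 2 for the difference between agents, and stayed at 0 for PG 826, ethanol and VEA 12.5 against 3.12. The PG 1100 count of 2 came without saline 10, and without PG 1100 animal 28 Ccr7 was called lower than in saline. All other settings kept these counts within 1.5 times. Over the single-gene values of the 10 genes, 1137 kept direction and side of the threshold, 28 lost the call, 15 gained it and 46 changed sign. Every value that changed sign was uncalled before and after (smallest adjusted p 0.622). Without saline 8, ethanol 13 and VEA 65 these were Cd209a in PG 1100 against saline (-0.017), Flt3 in VEA 3.12 against ethanol (0.040), H2-Aa in ethanol against saline (0.026), H2-DMa in ethanol against saline (0.20), H2-DMb1 in the difference between agents (0.013) and H2-Eb1 in ethanol against saline (-0.061). With limma-voom these were Ciita in VEA 3.12 against ethanol (-0.047) and H2-DMa in PG 1100 against PG 826 (-0.0060). With only the groups compared it was H2-DMb1 in the difference between agents (0.010). Leaving out 1 animal at a time changed signs in the following values, given with their full range over the animals left out: in PG 1100 against saline of Cd209a (-0.026 to 0.37); in VEA 12.5 against VEA 3.12 of Cd209a (-0.043 to 0.48) and Ciita (-0.31 to 0.45); in ethanol against saline of Cd74 (-0.14 to 0.16), Ciita (-0.049 to 0.64), H2-Aa (-0.099 to 0.065), H2-Ab1 (-0.024 to 0.28), H2-DMa (-0.19 to 0.23), H2-DMb1 (-0.0082 to 0.22) and H2-Eb1 (-0.045 to 0.16). The others were in PG 826 against saline of Ciita (-0.69 to 0.00049), Flt3 (-0.069 to 0.63) and H2-Eb1 (-0.28 to 0.078), in the difference between agents of Ciita (-0.67 to 0.018) and H2-DMb1 (-0.11 to 0.11), in VEA 12.5 against ethanol of Ciita (-0.24 to 0.38) and Flt3 (-0.21 to 0.84), in VEA 3.12 against ethanol of Ciita (-0.32 to 0.45) and Flt3 (-1.01 to 0.039) and in PG 1100 against PG 826 of H2-DMa (-0.24 to 0.23). For calls that were lost or reversed the cause was not tested, except that the fit of only the groups compared has fewer residual degrees of freedom by construction. No paired analysis was possible because the animal numbers are not shared between groups. Counts are lowest for Ciita, Cd209a, Ccr7 and Flt3, at 5 to 145 per library, and depth limits what can be called in them.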
